A study of Mus musculus with 16 samples.

Results

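The subunits of the mitochondrial respiratory chain were measured in mouse intervertebral discs, in the nucleus pulposus (NP), the gel core of the disc, and in the annulus fibrosus (AF), its fibrous ring. The members are the nuclear genes on the arrays whose symbols start with Nduf and a letter of a structural subunit, are Sdha to Sdhd, or start with Uqcr, Cox4 to Cox8, or Atp5, without pseudogenes and predicted genes. Each gene was represented by its probe set with the highest mean over the 16 arrays. This gave 84 of the 19505 genes with a symbol: 37 genes of complex I, 4 of complex II, 8 of complex III, 18 of complex IV and 17 of complex V. The start of the symbol set the complex, so Ndufa4 and its paralogue Ndufa4l2 are counted in complex I. Symbols are those of the array annotation, so the ATP synthase genes carry their older names (Atp5g1 is now Atp5mc1). The rule reads only the symbols and the mean signal, and it was set with earlier results of these data known.

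Complexes I to IV pass electrons from nutrients to oxygen and, except for complex II, pump protons across the inner mitochondrial membrane, and complex V, the ATP synthase, uses the returning protons to make ATP. Most subunits are encoded in the nucleus, and the mitochondrial chromosome encodes the others. The NP has no blood vessels, lies in low oxygen and is known for a high rate of glycolysis, and some subunits have isoforms that cells make in low oxygen, such as Ndufa4l2 and Cox4i2.

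NP and AF came from 8 female mice 3 to 4 months old, whose lumbar and tail discs were combined within each animal, so that each animal gave 1 NP array and 1 AF array. The 4 control mice (CTR) are Sox9fl/fl. The 4 conditional knockout mice (cKO) are AcanCreERT2Sox9fl/fl, which adds to the same floxed Sox9 a tamoxifen-inducible Cre that only cells expressing Acan, the aggrecan gene, make. Knockout mice received tamoxifen on 2 days in a row, and their discs were collected 5 days after the first injection. The labels name tamoxifen for the knockouts and do not say whether the controls received it, and they give no strain. Values are log2 signals, 4 values of a group stand in the order of replicates 1 to 4, an error after a mean is the SD over 4 arrays, and SE is that of a log2 difference in the limma fit. A difference is called where limma's p, adjusted by Benjamini-Hochberg over the 22206 probe sets tested, is under 0.05. Such p-values measure the spread between arrays of different animals. In bulk tissue, fewer cells of a type and less RNA per cell cannot be told apart.

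Sox9 ran from 15.95 to 16.79 in NP CTR and from 9.55 to 10.12 in NP cKO, and from 16.39 to 17.45 in AF CTR and from 11.43 to 12.99 in AF cKO. The change was -6.51 in NP (SE 0.30, adjusted p = 3.11e-10) and -4.68 in AF (SE 0.30, adjusted p = 1.05e-07). The labels of the tissues were checked by markers: all 13 genes of an AF and tendon list were lower in NP CTR than in AF CTR, 12 of them called, and Krt8, Krt19 and Cd24a of the NP list were higher. The NP list as a whole split into 5 called higher and 4 called lower of 12 genes, and the notochordal markers Noto and Shh had low signals in both tissues, with group means from 6.93 to 7.94 and no call between the control tissues. As a measure of background, the medians of the negative control probe sets ran from 6.14 to 6.59 over the arrays. Of the 84 subunit genes, 8 had a group mean under 6.59 in at least 1 group, and Ndufv3, Cox6b2, Cox7b2 and Cox8b lay under it in all 4 groups.

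NP CTR replicate 3 stood apart. It had the highest signal of its group for 54 of the 84 genes, and the mean over the 84 genes was 10.40 there and 9.93, 9.94 and 10.07 in NP CTR replicates 1, 2 and 4. In the other groups, AF CTR replicate 2 was the highest for 44 genes, AF CTR replicate 4 the lowest for 47, and NP cKO replicate 4 the lowest for 40. The SD of the signals over all probe sets was 2.69 in NP CTR replicate 3, against 2.52 to 2.59 for the rest of that group, and it was 2.69 in AF CTR replicate 2 and 2.45 in AF CTR replicate 4. In NP cKO it was lowest in replicate 1, at 2.48, and 2.53 in replicate 4.

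NP cKO replicates 3 and 4 had raised signals of some AF markers. The mean of the 13 AF and tendon markers was 8.24 and 9.28 there, 7.62 and 7.53 in NP cKO replicates 1 and 2, and at least 12.38 in every AF array. Dcn, the decorin gene of fibrous tissue, was 14.12 and 18.97 there and 7.39 and 7.61 in replicates 1 and 2. Other AF markers did not rise in this way. Over NP cKO replicates 1 to 4, Col1a1 was 8.87, 10.02, 9.19 and 9.31, and Fmod was 16.54, 17.72, 16.72 and 16.97. Both were highest in replicate 2. Tnmd, under the background in all 4 arrays, was 5.34 in replicate 3. In replicate 4 it was close to its value of 5.96 in replicate 1. NP CTR replicate 3 had raised signals too, with a list mean of 8.02 and Dcn at 10.65, against at most 7.70 and 6.86 in the rest of its group. Results that use the NP cKO group are therefore also given without NP cKO replicates 3 and 4. This alternative was chosen after the data were seen and leaves 2 NP cKO arrays.

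**Figure D1:**
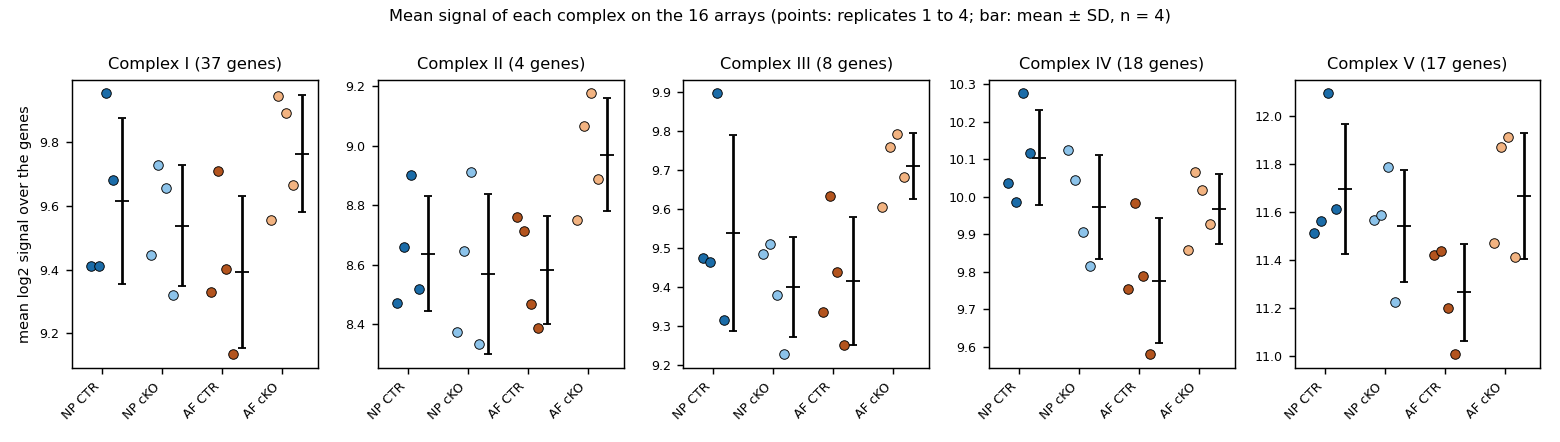
Mean log2 signal over the genes of each complex on the 16 arrays, with the 4 replicates of each group as points and the mean ± SD (n = 4) as bars. NP CTR replicate 3 is the highest point of its group in all 5 complexes, and the AF cKO means lie above the AF CTR means in all 5.

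The first comparison asks how the chain differs between NP and AF of control mice. Of the 84 genes, 12 were called higher in NP and 3 lower, which is 17.9% of the members beside 20.1% of all probe sets (9.96% higher and 10.1% lower). The median difference was 0.25, with 59 genes higher and 25 lower, beside a median of 0.04 and 52.8% higher over all probe sets. Complexes IV and V had the larger medians, 0.48 and 0.49, and the medians were 0.12 in complex I, 0.06 in complex II and 0.25 in complex III. The groups did not overlap for 15 genes higher in NP and 2 lower, beside 11.3% and 11.2% of all probe sets. Without NP CTR replicate 3 the median was 0.09 with 53 genes higher, and 12 genes were called, 8 higher and 4 lower. NP and AF arrays of the same animal are paired, and with the animal as a fixed replicate block 9 genes were called, 8 higher and 1 lower.

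The split of the calls also moved with the scaling. It was 22 higher and 1 lower after each array was centred on its median, which moved the median over all probe sets from 0.04 to 0.16, and 19 higher and 1 lower after a second quantile normalization. Relative to all probe sets, the median of the members was 0.21 as deposited and after centring, and 0.17 after the second quantile normalization.

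**Figure D2:**
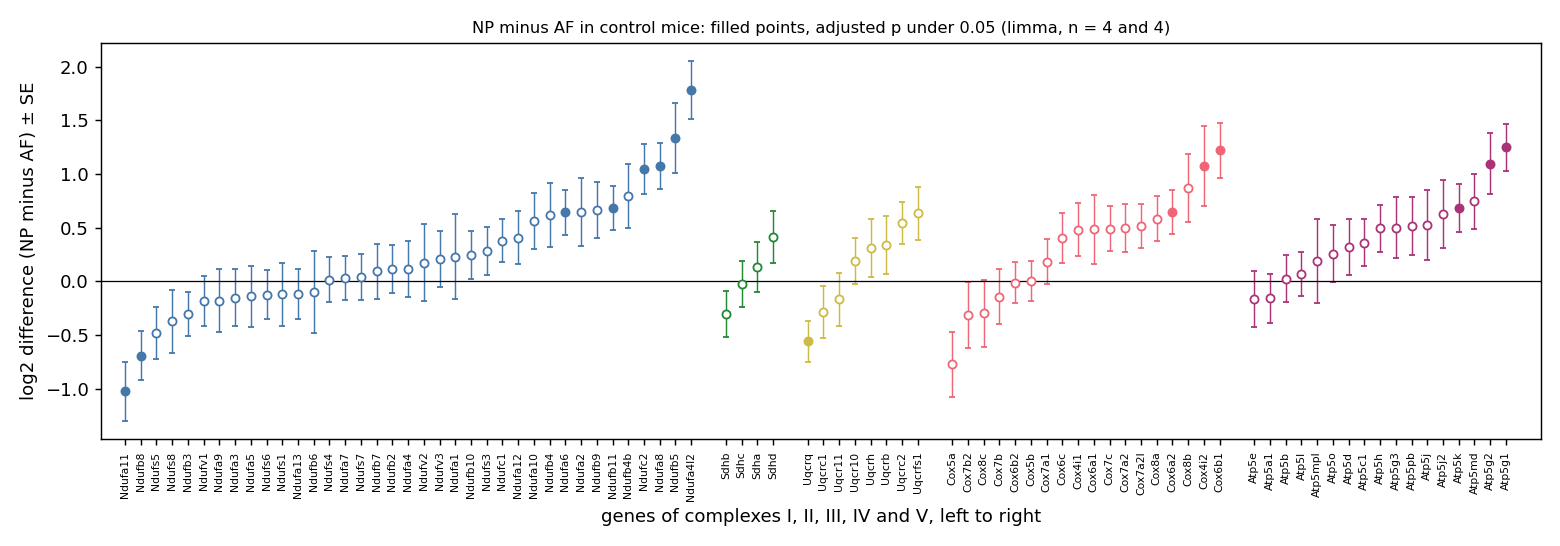
Log2 difference NP minus AF in control mice for each of the 84 genes, ordered by size within complexes I to V, with bars of ± 1 SE and filled points where the limma adjusted p is under 0.05. The largest difference is that of Ndufa4l2 at 1.78 and the lowest that of Ndufa11 at -1.03.

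In complex I, the entry point for electrons from NADH, 6 of 37 genes were called higher in NP and 2 lower. The largest difference was in Ndufa4l2, a paralogue of Ndufa4 that is known to be induced in low oxygen and lies on chromosome 10. Its 4 signals were 17.82, 17.81, 17.87 and 17.79 over NP CTR and 15.36, 16.42, 16.46 and 15.92 over AF CTR. All NP arrays lay above all AF arrays, and those of NP CTR lay within a narrow range. The difference was 1.78 (SE 0.27), or 3.44-fold, with a limma adjusted p of 1.11e-04.

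Ndufa8, an accessory subunit of the intermembrane space side, was also higher in NP. It measured 13.26, 13.27, 13.39 and 13.01 over NP CTR and 11.77, 12.56, 12.31 and 11.98 over AF CTR, a difference of 1.08 (SE 0.21, 2.11-fold, limma adjusted p = 0.00139). The groups did not overlap. Ndufc2, a small membrane subunit, was higher by 1.05 (SE 0.23, 2.06-fold, limma adjusted p = 0.00333), with NP CTR from 11.32 to 11.77 and AF CTR from 10.40 to 10.67. Ndufb5, of the membrane arm, was higher by 1.33 (SE 0.33, limma adjusted p = 0.00717). NP CTR replicate 2 at 9.42 lay just under AF CTR replicate 2 at 9.43, so for Ndufb5 the groups overlapped. The accessory subunits Ndufb11 (0.68, SE 0.20, limma adjusted p = 0.0222) and Ndufa6 (0.64, SE 0.21, 0.0349) were higher by less.

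Ndufa11, which helps hold the membrane arm together, was lower in NP. Its 4 signals were 7.93, 7.96, 7.95 and 7.79 over NP CTR and 8.88, 9.85, 8.73 and 8.28 over AF CTR. The NP arrays were close to each other and all under the AF arrays, of which replicate 2 was the highest. The difference was -1.03 (SE 0.27), or 2.04-fold lower in NP, with a limma adjusted p of 0.0124. Ndufb8, another membrane arm subunit, was lower (-0.69, SE 0.23, limma adjusted p = 0.0406), with NP CTR replicate 3 at 7.47 within the AF range from 7.17 to 8.10.

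Complex II, succinate dehydrogenase, feeds electrons from the citric acid cycle, and none of its 4 genes was called. The flavoprotein gene Sdha differed by 0.13 (SE 0.24), the iron-sulfur gene Sdhb by -0.30 (SE 0.21), and the membrane anchors Sdhc and Sdhd by -0.02 (SE 0.21) and 0.41 (SE 0.25). The limma adjusted p of these 4 genes was 0.258 or higher. Sdhc was above 0 under both scaling alternatives, at 0.11 and 0.12.

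In complex III, which passes electrons to cytochrome c, Uqcrq, a small subunit, was lower in NP (-0.56, SE 0.19, limma adjusted p = 0.0411), with NP CTR from 8.55 to 8.98 and AF CTR from 9.15 to 9.61. The core protein gene Uqcrc2 differed by 0.54 (SE 0.19) and was not called (limma adjusted p = 0.054), although its groups did not overlap.

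In complex IV, cytochrome c oxidase, 3 of 18 genes were called higher and none lower. Cox6b1, a subunit at the face where cytochrome c docks, measured 11.15, 11.00, 11.53 and 10.86 over NP CTR and 9.74, 10.48, 10.12 and 9.33 over AF CTR. All NP arrays lay above all AF arrays. The difference was 1.22 (SE 0.26), or 2.33-fold, with a limma adjusted p of 0.00252. Cox4i2, the isoform of subunit 4 known from lung and from cells in low oxygen, measured 11.20, 11.01, 10.75 and 11.10 over NP CTR and 9.39, 10.44, 10.30 and 9.63 over AF CTR. The lowest NP array was above the highest AF array, and the difference of 1.07 (SE 0.37) was near the threshold (limma adjusted p = 0.0486). Cox6a2 was the other call and is given with the isoforms.

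In complex V, 3 of 17 genes were called higher, and the genes called by the larger margins encode the same protein. Atp5g1, Atp5g2 and Atp5g3 encode subunit c, whose ring turns as protons pass. Atp5g1 was 12.83, 12.57, 12.66 and 13.26 over NP CTR and 11.50, 12.07, 11.50 and 11.25 over AF CTR, a difference of 1.25 (SE 0.22, 2.38-fold, limma adjusted p = 5.01e-04). Atp5g2 was 15.23, 15.26, 15.62 and 14.75 over NP CTR and 13.94, 14.28, 14.28 and 13.98 over AF CTR, a difference of 1.09 (SE 0.28, 2.14-fold, limma adjusted p = 0.0105). For both genes every NP array lay above every AF array. Atp5g3 differed by 0.50 (SE 0.29) and was not called (limma adjusted p = 0.236). Atp5k, the third call, lay at the background, with means of 6.60 in NP CTR and 5.92 in AF CTR, and differed by 0.68 (SE 0.22, limma adjusted p = 0.0368).

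The sequences upstream of Ndufa11, Cox6b1 and Atp5g1 are shown as examples. These 3 genes were called between the tissues in different directions and have an entry among the RefSeq promoters of GRCm38.p6. Other called genes, such as Atp5g2 and Atp5k, had an entry too. The examples do not stand for the members, since each motif below was in a minority of the member windows. Each run holds 250 bases that end at the annotated start, 5′ to 3′ on the gene's strand, and capitals mark matches to the motifs below.
Ndufa11, chr17:56717512-56717761, plus strand: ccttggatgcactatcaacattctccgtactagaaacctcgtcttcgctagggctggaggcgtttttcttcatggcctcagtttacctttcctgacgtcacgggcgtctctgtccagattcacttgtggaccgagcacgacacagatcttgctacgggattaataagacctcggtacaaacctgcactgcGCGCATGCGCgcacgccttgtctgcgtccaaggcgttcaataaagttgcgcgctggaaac
Cox6b1, chr7:30626115-30626364, minus strand: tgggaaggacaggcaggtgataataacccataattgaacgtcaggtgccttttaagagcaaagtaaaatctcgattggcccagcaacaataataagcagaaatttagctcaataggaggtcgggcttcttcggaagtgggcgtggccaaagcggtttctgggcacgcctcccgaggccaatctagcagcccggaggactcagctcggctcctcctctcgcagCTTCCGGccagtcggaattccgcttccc
Atp5g1, chr11:96075632-96075881, minus strand: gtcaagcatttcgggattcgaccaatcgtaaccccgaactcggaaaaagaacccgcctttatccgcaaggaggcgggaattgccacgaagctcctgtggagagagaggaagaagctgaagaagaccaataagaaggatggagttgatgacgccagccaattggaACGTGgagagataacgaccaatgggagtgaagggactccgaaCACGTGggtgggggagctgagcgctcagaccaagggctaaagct
The capitals mark 1 match to the NRF1 motif in Ndufa11, 1 match to the GABP motif CCGGAAG on the opposite strand in Cox6b1, and matches to the hypoxia response motif ACGTG in Atp5g1, 3 when both strands are counted.

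NRF1 and GABP (also called NRF2) are known as activators of nuclear genes of the respiratory chain. Of the 84 genes, 69 had an entry, with 74 windows, and all 32851 windows of the same length served as the background. The low-oxygen isoforms Ndufa4l2 and Cox4i2 had no entry, so their windows were not searched. On either strand, the NRF1 motif, spelled by the capitals of Ndufa11, was in 4 member windows (5.41%, beside 0.782% of all windows), those of Ndufa11, Cox6a1, Atp5g2 and Atp5k. The GABP motif CCGGAAG was in 12 windows (16.2% beside 6.91%), those of Cox6b1, Sdhd and Uqcrh among them. The motif AAGGTCA of the oestrogen-related receptors was in 5 windows (6.76% beside 4.08%), the YY1 motif AAGATGGC in 1 (1.35% beside 1.56%), and the hypoxia response motif ACGTG in 15 (20.3% beside 16.6%). These shares describe letters in a window and say nothing about binding.

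The same tissues were then compared in the knockout mice. Of the 84 genes, 2 were called higher in NP cKO than in AF cKO and 10 lower, which is 14.3% of the members beside 25.9% of all probe sets (13.3% higher and 12.6% lower). Under the thresholds of the labels, an unadjusted p under 0.05 and a fold of 1.75, 7 members passed, beside 20.4% of all probe sets. The labels also name a detection p threshold of 0.05, which was not applied in any count given here. The median difference was -0.18 with 27 genes higher and 57 lower, beside a median of 0.07 and 54.4% higher over all probe sets. By complex the medians were -0.27 in I, -0.40 in II, -0.30 in III, 0.06 in IV and -0.18 in V. The groups did not overlap for 1 gene higher in NP and 10 lower, beside 14.3% and 12.5% of all probe sets. After a second quantile normalization the median was -0.02, with 41 genes higher, and the calls were 5 higher and 5 lower. Without NP cKO replicates 3 and 4, which had raised signals of some AF markers, the median was -0.12. In that fit 4 genes were called, Ndufa4l2 higher and Ndufa11, Ndufs4 and Sdha lower. The part of the AF signal in these calls was not tested further. Calls in both genotypes were made for Ndufa4l2, Ndufa8 and Ndufa11, each in the same direction. These comparisons share arrays with those between genotypes. Markers of other cells differed between the knockout tissues too: 23 of 31 skeletal muscle, 12 of 14 neutrophil, 9 of 12 endothelial, 7 of 15 macrophage, 5 of 11 osteoclast and 4 of 8 red cell precursor markers were called lower in NP cKO than in AF cKO, with array means from 5.80 to 6.05 for muscle and from 5.6 to 7.46 for neutrophils over all NP arrays. Between the control tissues, 2 of 31 muscle, 1 of 14 neutrophil, 9 of 12 endothelial, 3 of 15 macrophage, 3 of 11 osteoclast and 1 of 8 red cell precursor markers were called lower in NP. Of all probe sets, 12.6% were called lower in NP between the knockout tissues and 10.1% between the control tissues. The part of these other cells in the tissue differences was not tested.

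Ndufa4l2 was also higher in NP of the knockouts, at 17.89, 17.57, 18.39 and 17.48 over NP cKO and 16.34, 16.44, 16.09 and 17.11 over AF cKO. The groups did not overlap, and AF cKO replicate 4 was the AF array nearest to NP. The difference was 1.34 (SE 0.27, 2.53-fold, limma adjusted p = 0.0015). Ndufa8 was higher by 0.61 (SE 0.21, limma adjusted p = 0.0419), with NP cKO replicate 4 at 12.31 inside the AF cKO range from 11.93 to 12.31.

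Among the 10 genes lower in NP cKO than in AF cKO, 7 are counted in complex I by their symbols. Ndufa11 was again lower, at 7.92, 8.09, 7.75 and 8.16 over NP cKO and 9.57, 9.80, 9.90 and 8.92 over AF cKO, a difference of -1.56 (SE 0.27, 2.96-fold, limma adjusted p = 5.25e-04). Every NP array lay under every AF array. Ndufs4, an accessory subunit of the arm that takes electrons from NADH, measured 7.96, 7.76, 7.93 and 7.79 over NP cKO and 8.77, 8.95, 9.43 and 8.72 over AF cKO. The groups did not overlap, and the difference was -1.11 (SE 0.21, 2.16-fold, limma adjusted p = 8.56e-04). In control mice it had been 0.02 (SE 0.21), with NP CTR from 8.17 to 8.72 and AF CTR from 8.07 to 8.73.

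Ndufv1, the subunit that binds NADH, was lower (-0.84, SE 0.23, limma adjusted p = 0.0131), with NP cKO from 9.72 to 10.17 and AF cKO from 10.45 to 10.99. Ndufb10, a subunit of the membrane arm, differed by -0.73 (SE 0.22, 0.0199), and Ndufb2, of the same arm, by -0.64 (SE 0.22, 0.042), and for both the groups did not overlap. Ndufa1 (-1.09, SE 0.39, 0.049) and Ndufa4 (-0.75, SE 0.26, 0.0425) were lower with overlapping groups. Ndufa4 was first assigned to complex I and is now placed in complex IV, but the counts and medians here keep it in complex I.

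Besides the genes counted in complex I, the calls in the knockouts were Sdha, Uqcrc1 and Cox5a, each lower in NP. They belong to complexes II, III and IV. Cox5a, a matrix-side subunit, measured 8.67, 8.23, 7.74 and 7.72 over NP cKO and 8.95, 9.52, 10.11 and 8.74 over AF cKO, a difference of -1.24 (SE 0.30, 2.36-fold, limma adjusted p = 0.0062). The groups lay close, with NP cKO replicate 1 just under AF cKO replicate 4. In control mice Cox5a differed by -0.77 (SE 0.30) and was not called (limma adjusted p = 0.0807). Sdha differed by -0.80 (SE 0.24, limma adjusted p = 0.0189) and the core protein gene Uqcrc1 by -0.77 (SE 0.24, 0.0253), both without overlap. Complex V had no call, with Atp5g1 at 0.40 (SE 0.22, limma adjusted p = 0.182) and Atp5g2 at 0.40 (SE 0.28, 0.309). All 12 genes called higher in NP of the controls were above 0 here as well, each by less than in the controls, where that difference had selected them. The 10 genes called lower included 6 that had been above 0 in the controls. The test of the difference between genotypes, taken as the AF change minus the NP change, called no gene.

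**Figure D3:**
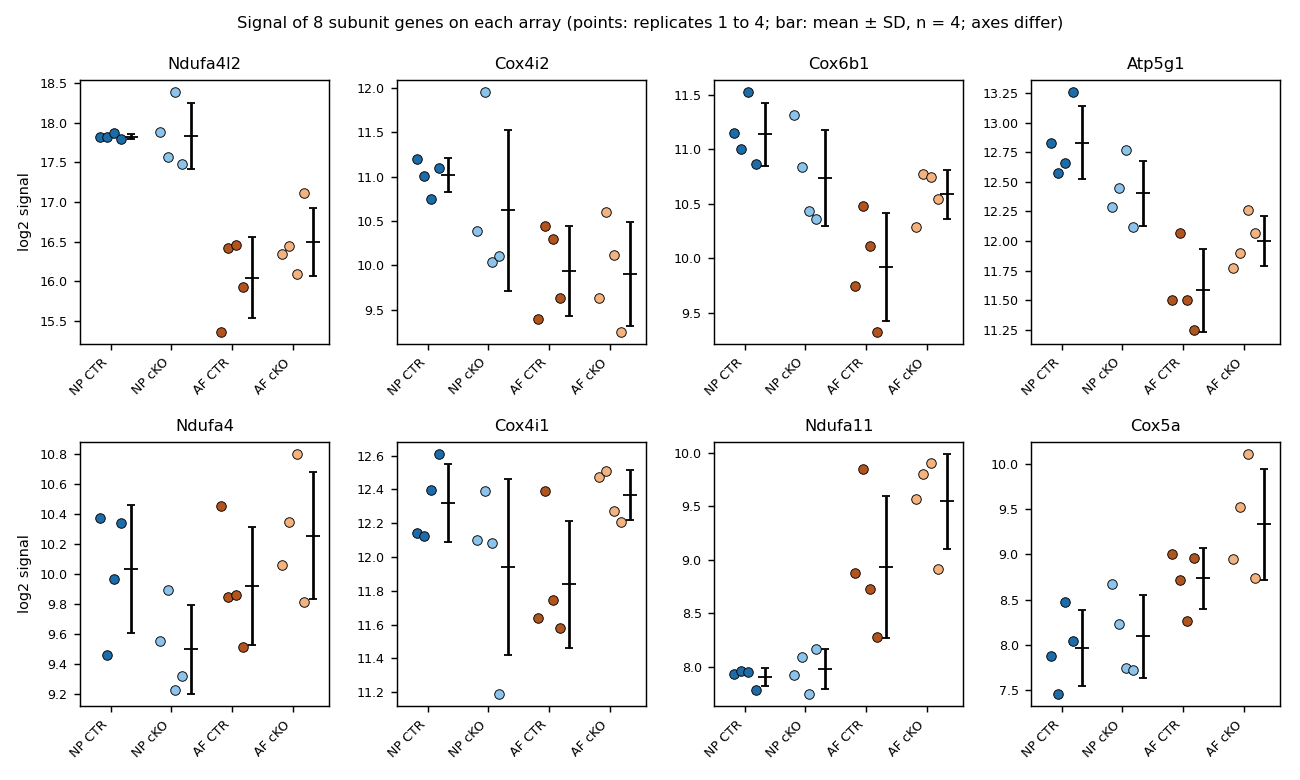
Log2 signal of 8 subunit genes on each array, with replicates 1 to 4 of each group as points and the mean ± SD (n = 4) as bars, and with a separate axis for each gene. Ndufa4l2 lies from 17.48 to 18.39 in NP and from 15.36 to 17.11 in AF, and Ndufa11 from 7.75 to 8.16 in NP and from 8.28 to 9.90 in AF.

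Many of these calls were lost in a fit that left out 1 array. Some of those arrays lie outside the comparison, and the difference then stayed the same. Cox4i2, for example, stayed at 1.07 without AF cKO replicate 1 and lost its call. Of the 27 calls in both tissue comparisons, 13 were kept without any 1 array and 11 under every alternative. Those 11 are Ndufa4l2, Ndufa8, Ndufa11, Ndufb5, Ndufc2, Cox6b1, Atp5g1 and Atp5g2 in the controls, and Ndufa4l2, Ndufa11 and Ndufs4 in the knockouts. Cox5a and Ndufv1 were kept without any 1 array and lost without NP cKO replicates 3 and 4 together (limma adjusted p = 0.114 and 0.0524), and Ndufv1 also without AF cKO replicates 2 and 4 (0.0623). The count of 15 in the controls was 9 without AF CTR replicate 4 or without NP CTR replicate 4. The count of 12 in the knockouts was 5 without AF cKO replicate 3, 6 without NP cKO replicate 1 and 7 without AF cKO replicate 2.

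In the controls, Ndufb11 lost its call without AF CTR replicate 3 or NP CTR replicates 3 or 4 (limma adjusted p up to 0.0721). Ndufa6 lost it without AF CTR replicates 1, 3 or 4 or NP CTR replicates 3 or 4 (up to 0.103), and Atp5k without AF CTR replicates 2 to 4 or NP CTR replicates 2 or 4 (up to 0.0981). Cox6a2 lost it without AF CTR replicates 2 to 4 or NP CTR replicates 1, 3 or 4 (up to 0.0885). Ndufb8 lost it without AF CTR replicates 2 to 4 or NP CTR replicates 1, 2 or 4 (up to 0.143), and Uqcrq without AF CTR replicates 1, 2 or 4 or NP CTR replicates 1, 2 or 4 (up to 0.127). Cox4i2 lost it without any NP CTR array, AF CTR replicates 1 or 4, AF cKO replicates 1 or 3, or NP cKO replicate 1 (up to 0.14). Ndufb8 and Uqcrq also lost their calls under both scaling alternatives (limma adjusted p from 0.0719 to 0.109). With the animal as a fixed replicate block, the adjusted p was 0.085 for Ndufb11, 0.125 for Ndufa6, 0.0898 for Atp5k, 0.0847 for Cox6a2, 0.0623 for Ndufb8 and 0.15 for Uqcrq. Without NP cKO replicates 3 and 4, Ndufb8 (0.057) and Uqcrq (0.0579) lost their calls as well.

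In the knockouts, Ndufb10 lost its call without AF cKO replicate 3 (limma adjusted p = 0.0669), and Sdha without that array or NP cKO replicate 1 (up to 0.069). Uqcrc1 lost it without AF cKO replicates 2 or 3 or NP cKO replicates 1 or 3 (up to 0.0783). Ndufa8 lost it without any AF cKO array or NP cKO replicates 1 to 3 (up to 0.132). Ndufa4 lost it without AF cKO replicates 2 or 3, AF CTR replicate 3, or NP cKO replicates 1, 3 or 4 (up to 0.15). Ndufb2 lost it without AF cKO replicates 2 or 3, AF CTR replicate 3 or any NP cKO array (up to 0.149). Ndufa1 lost it without 10 of the 16 arrays (up to 0.158), among them NP cKO replicates 1, 3 and 4, AF cKO replicates 2 and 3, AF CTR replicates 1 and 3 and NP CTR replicates 1 to 3. Ndufa1, Ndufa4 and Ndufb2 also lost their calls under both scaling alternatives (limma adjusted p from 0.0638 to 0.106), and Sdha (0.0529) and Uqcrc1 (0.07) after the second quantile normalization. With the animal as a fixed replicate block, Ndufa8 (0.0749) and Ndufb2 (0.0518) lost theirs. Without NP cKO replicates 3 and 4, Ndufa1, Ndufa4, Ndufa8, Ndufb2, Ndufb10 and Uqcrc1 lost theirs too (from 0.106 to 0.293).

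The comparison of genotypes asks how the chain stands days after the loss of Sox9, the transcription factor of cartilage. In the NP, limma called none of the 84 genes, beside 0.122% of all probe sets. At an unadjusted p under 0.05 there were 2 genes, both lower, beside 2.81% of all probe sets lower. The median change was -0.09 with 30 genes higher and 54 lower, beside 0.00 and 50% over all probe sets. By complex the medians were -0.10 in I, -0.04 in II, -0.13 in III, -0.09 in IV and -0.08 in V. The median was -0.04 after a second quantile normalization. Without NP CTR replicate 3 it turned to 0.02, with 45 genes higher and 39 lower. Without NP cKO replicate 4 it was -0.05. Without NP cKO replicates 3 and 4, which had raised signals of some AF markers, it was 0.01, with 43 higher and 41 lower.

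The 2 genes were Ndufs4 and Ndufa8, neither of which passed. Ndufs4 measured 8.25, 8.72, 8.63 and 8.17 over NP CTR and 7.96, 7.76, 7.93 and 7.79 over NP cKO. All knockout arrays lay under all control arrays, and the change was -0.58 (SE 0.21, limma adjusted p = 0.777). Ndufa8 changed by -0.51 (SE 0.21, limma adjusted p = 0.97) with NP cKO replicate 3 inside the control range. Sdha was the other gene without overlap, with NP CTR from 8.27 to 8.68 and NP cKO from 7.80 to 8.27, which nearly touched, and a change of -0.39 (SE 0.24, limma adjusted p = 1). The share of all probe sets that were lower without overlap was 1.82%.

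In the other complexes the smallest p belonged to genes that did not pass either, with a limma adjusted p of 1 for each. They were Sdhd (-0.22, SE 0.25) in complex II, Uqcrb (-0.53, SE 0.27) and Uqcr11 (-0.26, SE 0.25) in complex III, Cox8b (-0.65, SE 0.32) and Cox7a2l (-0.37, SE 0.21) in complex IV, and Atp5g1 (-0.43, SE 0.22) and Atp5md (-0.45, SE 0.26) in complex V. Uqcrb binds ubiquinone, and Cox7a2l helps join complexes III and IV into larger assemblies. The low-oxygen isoform Ndufa4l2 changed by 0.01 (SE 0.27).

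In the AF, limma again called none of the 84 genes, beside 0.0991% of all probe sets. The median change was 0.37, with 75 genes higher in cKO and 9 lower, beside a median of -0.03 and 46.4% higher over all probe sets. By complex the medians were 0.39 in I, 0.43 in II, 0.32 in III, 0.22 in IV and 0.42 in V, and every gene of complexes II and III was above 0. At an unadjusted p under 0.05 there were 16 genes, all higher, beside 4.94% of all probe sets higher, and 2 of them passed the thresholds of the labels, beside 2.05%. The groups did not overlap for 6 genes higher and 1 lower, beside 1.79% and 2.54% of all probe sets. The mean over the 84 genes was 9.82, 10.06, 9.81 and 9.58 over AF CTR and 9.97, 10.30, 10.28 and 10.04 over AF cKO. The groups overlap, since the highest control array, replicate 2, exceeded replicates 1 and 4 of the knockouts.

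**Figure D4:**
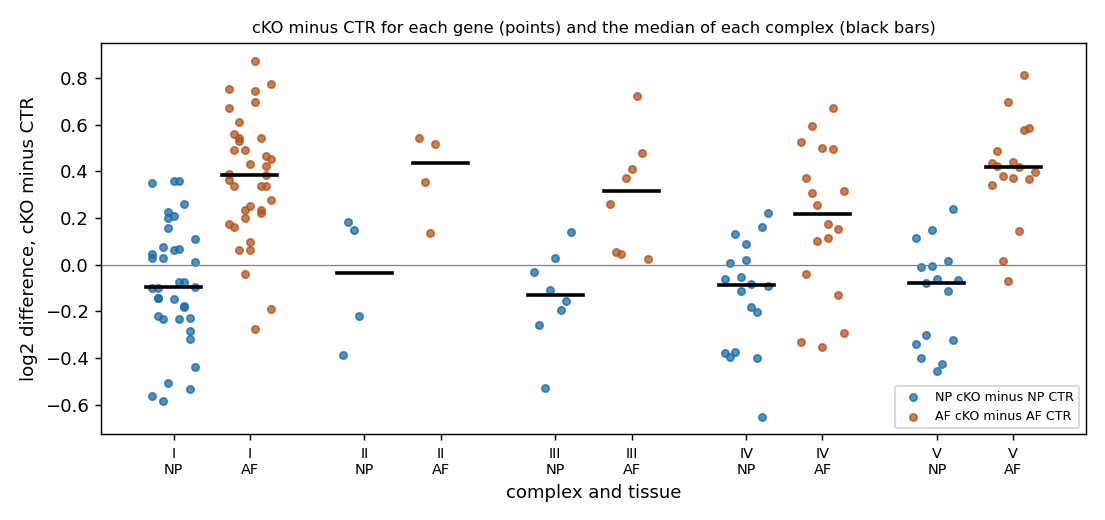
Log2 change cKO minus CTR of each gene in NP and AF, by complex, with black bars at the median of each complex. The AF medians run from 0.22 to 0.43 and the NP medians from -0.13 to -0.04.

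Several genes of the AF comparison had unadjusted p under 0.05 without passing the adjustment. Ndufb10 measured 6.98, 7.12, 6.31 and 6.61 over AF CTR and 7.68, 7.42, 7.76 and 7.16 over AF cKO. All knockout arrays lay above all control arrays, and the change was 0.75 (SE 0.22, unadjusted p = 0.00307, limma adjusted p = 0.236). Ndufs7, which carries an iron-sulfur cluster, changed by 0.70 (SE 0.21, limma adjusted p = 0.259), also without overlap. Atp5o, part of the stalk that holds the ATP synthase still, measured 9.18, 9.19, 8.75 and 8.97 over AF CTR and 9.58, 10.10, 10.22 and 9.45 over AF cKO. Its groups did not overlap, and the change was 0.81 (SE 0.26, limma adjusted p = 0.29).

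In the other complexes, the genes with the smallest p were Sdha (0.54, SE 0.24, limma adjusted p = 0.436) and Sdhd (0.52, SE 0.25, 0.47), the Rieske iron-sulfur protein gene Uqcrfs1 (0.72, SE 0.25, 0.322) and Uqcrc2 (0.41, SE 0.19, 0.463). In complex IV they were Cox6b1 (0.67, SE 0.26, 0.375) and Cox8a (0.50, SE 0.21, 0.413), and in complex V, after Atp5o, the ATP synthase gene Atp5d (0.70, SE 0.26, 0.368). Atp5g2 (0.58, SE 0.28), Ndufb2 (0.47, SE 0.22) and Ndufv3 (0.67, SE 0.26, at the background) were the other genes without overlap on the higher side. Cox7a1, an isoform known from muscle, was the gene without overlap on the lower side (-0.33, SE 0.21, limma adjusted p = 0.58).

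The shift in the AF was as deposited 0.40 above that of all probe sets, and 0.24 above it after a second quantile normalization, when 70 of 84 genes were higher. Leaving out arrays in turn gave medians from 0.27 (without AF CTR replicate 4) to 0.45 (without AF CTR replicate 2), with no call in any of these fits. The SD over all probe sets ran from 2.45 to 2.69 in AF CTR (mean 2.56) and from 2.56 to 2.70 in AF cKO (mean 2.66), with means of 2.59 in NP CTR and 2.55 in NP cKO, and its part in the shift was not tested beyond this normalization.

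Markers of other cells also had other mean signals in AF cKO than in AF CTR, and mitochondria are abundant in some of those cells. Limma called none of the markers of skeletal muscle, neutrophils, osteoclasts, red cell precursors, macrophages, endothelium or fat cells between the AF groups. Of 31 skeletal muscle markers, 29 were higher in AF cKO with a median of 1.10, and their mean signal was 9.27 and 8.98 in AF cKO replicates 2 and 4 and from 6.30 to 7.07 in the other AF arrays. Without these 2 arrays the median of the subunit genes was 0.31, with 73 of 84 higher. The part of muscle in the shift of the subunit genes was not tested. The muscle isoforms had low signals. Cox6a2 was 6.90 and 6.65 in AF cKO replicates 2 and 4 and 6.34 and 6.58 in replicates 1 and 3, and Cox8b was 5.75 and 6.18 beside 4.86 and 4.91, so among the AF cKO arrays both were higher in those with high muscle markers. Cox6a2 was also 6.76 in AF CTR replicate 1 and up to 7.25 in NP, where muscle markers were low. Cox7a1 was 6.50 and 6.49 in AF cKO replicates 2 and 4, beside 6.60 and 6.58 in replicates 1 and 3.

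All 14 neutrophil markers were higher in AF cKO, with a median of 2.84, and their mean signal was 10.86, 10.76, 12.14 and 8.75 over AF cKO and 10.53, 7.36, 6.23 and 6.87 over AF CTR. The part of the neutrophil signal in the shift of the subunit genes was not tested. Osteoclast markers, 9 of 11 higher with a median of 0.25, had means of 9.27 in AF CTR replicate 1 and 10.21 in AF cKO replicate 3, and from 6.37 to 7.99 in the other AF arrays. Without these 2 arrays the median of the subunit genes was 0.33, with 72 of 84 higher. The part of osteoclasts in the shift was not tested. Of the red cell precursor markers, 8 of 8 were higher, with a median of 0.98. Their array means ran from 6.71 to 7.73 in AF CTR and from 7.16 to 9.32 in AF cKO. Macrophage markers (12 of 15 higher, median 0.28) had array means from 6.39 to 8.04 and from 6.88 to 8.20. Endothelial markers (12 of 12 higher, median 0.55) had array means from 6.72 to 8.30 and from 7.24 to 8.33. None of these markers was called, and their part was not tested. Fat cell markers had a median of -0.15, with 5 of 12 higher. Cartilage markers went the other way, with 14 of 15 lower in AF cKO, 2 of them called, and a median of -1.58.

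**Figure D5:**
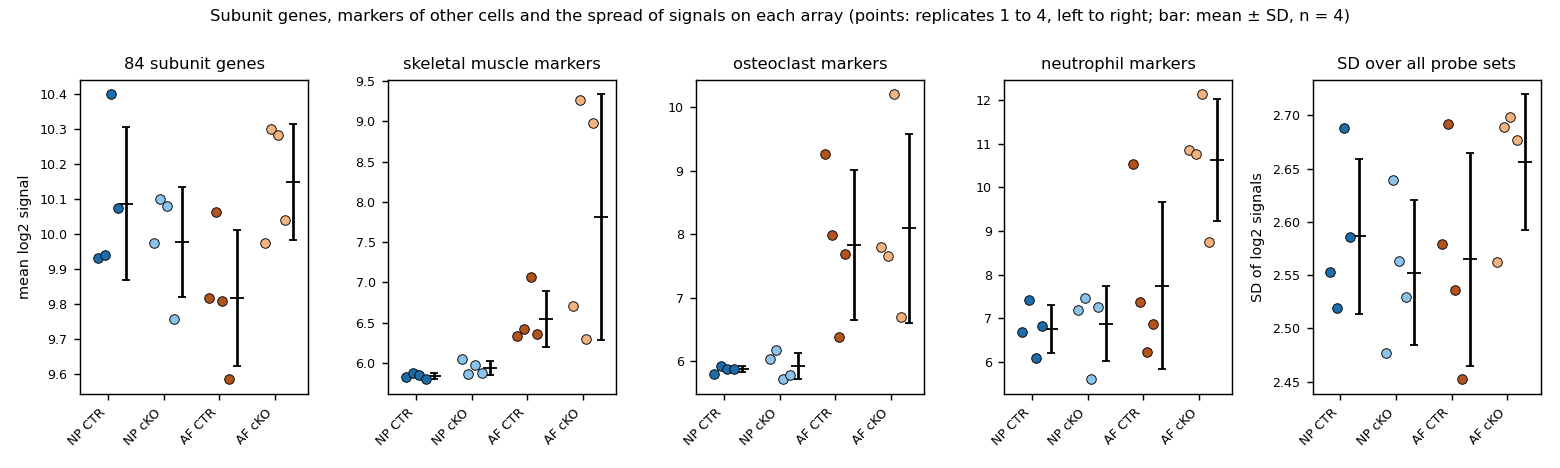
Mean log2 signal of the 84 subunit genes and of skeletal muscle, osteoclast and neutrophil markers, and the SD of the signals over all probe sets, on each array, with replicates 1 to 4 from left to right and bars of mean ± SD (n = 4). The muscle markers are high in AF cKO replicates 2 and 4, at 9.27 and 8.98. Among the AF cKO arrays the subunit genes are highest in replicates 2 and 3, at 10.30 and 10.28.

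Whether the change differed between the tissues was tested as the AF change minus the NP change. None of the 22206 probe sets was called by limma in this test, which is 0% of all probe sets and of the members. At an unadjusted p under 0.05 there were 18 members, all with a difference above 0, beside 3.17% of all probe sets in that direction. Of these members, 11 passed the thresholds of the labels, beside 2.17%. A difference above 0 means a more positive change in AF, which need not be the larger change. The median difference was 0.46, with 73 genes above 0 and 11 below, beside -0.02 and 48.4% over all probe sets. Ndufs4 had the smallest p, with a difference of 1.13 (SE 0.29, unadjusted p = 0.00112, limma adjusted p = 0.732), and it had changed by -0.58 in NP and 0.54 in AF. Ndufb10 (0.98, SE 0.31), Cox6b1 (1.07, SE 0.37), Sdha (0.93, SE 0.33) and Atp5g1 (0.85, SE 0.31) followed, each with the same limma adjusted p of 0.732. In complex II Sdhd differed by 0.74 (SE 0.35), in complex III Uqcrfs1 by 0.92 (SE 0.35) and Uqcrh by 0.63 (SE 0.38), in complex IV Cox4i1 by 0.91 (SE 0.35) and in complex V Atp5md by 0.83 (SE 0.37). None of these passed. Without NP CTR replicate 3 the median was 0.34, without NP cKO replicates 3 and 4 it was 0.43 with 64 genes above 0, and after a second quantile normalization it was 0.32 with 65 genes above 0.

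Isoforms with a restricted pattern were compared with their widely expressed partners through their differences, since levels of different probe sets cannot be compared. Ndufa4l2 was higher in NP in both genotypes (1.78 and 1.34), whereas Ndufa4 differed by 0.12 (SE 0.26, limma adjusted p = 0.799) in the controls and was lower in the knockouts (-0.75). Cox4i2 was higher in NP of the controls (1.07), with 0.72 (SE 0.37, limma adjusted p = 0.16) in the knockouts, and its partner Cox4i1 differed by 0.48 (SE 0.25, 0.184) and -0.43 (SE 0.25, 0.21). In NP cKO, Cox4i2 spread from 10.04 to 11.96, with replicate 2 above all other arrays of the study.

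For subunit 6b the order was the other way, since the common Cox6b1 was higher in NP of the controls and the testis isoform Cox6b2 lay at the background with a difference of -0.01 (SE 0.19). Cox6a2, the isoform of heart and skeletal muscle, was called higher in NP CTR (0.65, SE 0.21, limma adjusted p = 0.0339). Its signals were low, from 6.94 to 7.24 in NP CTR and from 6.26 to 6.76 in AF CTR, with the AF mean of 6.51 under the highest negative control median. Cox6a1 differed by 0.48 (SE 0.32, 0.317). Cox7a1 of muscle and Cox7a2 differed by 0.18 (SE 0.21, 0.584) and 0.50 (SE 0.22, 0.129), and the testis isoform Cox7b2 and Cox7b by -0.32 (SE 0.31, 0.508) and -0.14 (SE 0.26, 0.736). The muscle and fat isoform Cox8b (0.87, SE 0.32, 0.0591), at the background, Cox8a (0.58, SE 0.21, 0.0525) and the testis isoform Cox8c (-0.30, SE 0.31, 0.545) were not called. None of these isoforms was called between genotypes in either tissue. Ndufb4 and Ndufb4b are near-identical copies whose probes may share transcripts, so their differences of 0.62 (SE 0.30) and 0.80 (SE 0.30), neither called, are uncertain.

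The mitochondrial chromosome was represented by 9 probe sets without a gene symbol, so its 13 protein genes could not be described by name. Their mean signal was 19.32 ± 0.18 in NP CTR, 19.36 ± 0.06 in NP cKO, 19.36 ± 0.10 in AF CTR and 19.38 ± 0.01 in AF cKO, near the highest value on the arrays, 19.93. Limma called 1 of them, lower in NP cKO than in AF cKO, beside 12.6% of all probe sets. It called none in the other comparisons.

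Assembly factors and electron carriers build or serve the complexes without being structural subunits. Of 49 measured, 4 were called higher and 4 lower in NP of the controls, with a median of 0.03. That is 16.3% of the list, beside 20.1% of all probe sets. In AF cKO 37 were higher than in AF CTR, with a median of 0.12 and no call. The copper chaperone Cox17 of complex IV was higher in NP CTR (1.48, SE 0.36, limma adjusted p = 0.00702). So were Ndufaf3 (0.82, SE 0.23, 0.0178) and Cox14 (0.58, SE 0.17, 0.0195), assembly factors of complexes I and IV. Cox14 lay under the background in every group, with group means from 5.58 to 6.18. Between the knockout tissues 3 were called higher and 4 lower in NP, 14.3% of the list beside 25.9% of all probe sets. Sdhaf2, which attaches the flavin to Sdha, was lower in NP in both genotypes (-0.72, SE 0.22, limma adjusted p = 0.0239 in the controls, and -1.33, SE 0.22, 2.71e-04 in the knockouts). Ndufaf6 and Sdhaf3 were lower in NP in both genotypes too. In the controls they differed by -0.68 (SE 0.22, limma adjusted p = 0.0312) and -0.86 (SE 0.30, 0.047). In the knockouts the differences were -0.79 (SE 0.22, 0.0122) and -1.07 (SE 0.30, 0.0132). Ndufaf6 lay under the background in every group, with group means from 5.19 to 5.98. Sdhaf3 lay under it in NP, with means of 6.53 in NP CTR and 6.40 in NP cKO.

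Of 25 genes of the citric acid cycle and pyruvate dehydrogenase, 6 were called higher in NP of the controls and 1 lower, with a median of 0.11. That is 28% of the list, beside 20.1% of all probe sets. Idh2, the mitochondrial isocitrate dehydrogenase, was higher by 1.70 (SE 0.25, limma adjusted p = 1.00e-04), Pdha1 of pyruvate dehydrogenase by 1.13 (SE 0.23, 0.00167) and Pcx, pyruvate carboxylase, by 1.71 (SE 0.35, 0.00207). In the knockouts 5 were called higher and 4 lower, 36% of the list beside 25.9% of all probe sets. Among the higher were Pdk4, which switches pyruvate dehydrogenase off (1.58, SE 0.29, limma adjusted p = 6.67e-04), and Idh2 (1.37, SE 0.25, 7.96e-04). The 4 lower were Pdhx, Pdhb, Sucla2 and Cs. Pdhx was also the gene called lower in the controls, and Pdhx and Sucla2 lay under the background in every group. In the AF, 22 of 25 were higher in cKO with a median of 0.24, and none was called.

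Of 22 mitochondrial carriers and channels, 5 were called higher in NP of the controls and none lower, with a median of 0.17. That is 22.7% of the list, beside 20.1% of all probe sets. The porins Vdac1 (1.59, SE 0.24, limma adjusted p = 1.43e-04) and Vdac2 (1.41, SE 0.24, 3.74e-04) and the ATP-magnesium carrier Slc25a23 (2.24, SE 0.48, 0.00258) had the smallest p. In the knockouts 3 were called higher and 3 lower, 27.3% of the list beside 25.9% of all probe sets. Among the higher were again Vdac1 (0.91, SE 0.24, limma adjusted p = 0.011) and Vdac2 (0.70, SE 0.24, 0.0381). Among the lower were the aspartate-glutamate carrier Slc25a12 (-1.27, SE 0.26, limma adjusted p = 0.00162) and the ADP/ATP carrier Slc25a5 (-1.63, SE 0.36, 0.00287). Ucp1 was called higher in NP in both genotypes and lay under the background in every group, with group means from 4.30 to 5.06. In the AF, 16 of 22 were higher in cKO with a median of 0.33 and no call.

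Of 23 regulators of mitochondrial genes and mitochondrial dynamics, Opa1, which fuses inner membranes, was called higher in NP of the controls (0.94, SE 0.27, limma adjusted p = 0.0203). Ppargc1a, a coactivator of mitochondrial genes, was called lower (-0.65, SE 0.21, 0.0384), and it lay under the background in every group. These calls are 8.7% of the list, beside 20.1% of all probe sets. In the knockouts the fusion gene Mfn1 (0.80, SE 0.19, limma adjusted p = 0.00582), the mitochondrial DNA packaging gene Tfam (0.61, SE 0.21, 0.0385) and Mterf1a (0.75, SE 0.27, 0.0497) were higher in NP. The knockout calls are 13% of the list, beside 25.9% of all probe sets. In the AF, 11 of 23 were higher in cKO, with a median of -0.02.

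Glycolysis and hypoxia genes had the largest median differences between tissues among these pathway lists. Of 26, 17 were called higher in NP of the controls and 1 lower, which is Hif1a (-1.0, SE 0.26, limma adjusted p = 0.0109). The median was 1.18, and the calls are 69.2% of the list, beside 20.1% of all probe sets. In the knockouts 16 were called higher and none lower, with a median of 1.10. That is 61.5% of the list, beside 25.9% of all probe sets. The glucose transporter gene Slc2a3 (2.45, SE 0.26, limma adjusted p = 2.90e-06), the phosphofructokinase gene Pfkl (1.57, SE 0.22, 7.01e-05) and Bnip3, which is induced in low oxygen and marks mitochondria for removal (2.58, SE 0.39, 1.11e-04), had the smallest p in the controls. In the AF, 20 of 26 were higher in cKO with a median of 0.32 and no call.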

How the data were processed

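RNA of NP and AF from 8 mice was hybridised to 1-colour Affymetrix arrays, 16 in all, 4 per group. The deposited values are log2 signals per probe set, made by the authors with sst-RMA per the labels' protocols, and the submitters' processing notes name the Transcriptome Analysis Console (version: not given in the sources used here). In all, 28846 probe sets were deposited. Without 6640 control probe sets, 22206 entered the tests, of which 19572 had 1 symbol and 2634 none in the platform annotation. Array medians ran from 6.66 to 6.89. No further normalization was applied. Depth has no counterpart on arrays, whose number limits the precision.

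All 16 arrays were fitted in limma 3.58.1 (R 4.3.3) with 1 mean per group, moderated variances and Benjamini-Hochberg adjustment over all probe sets, and the procedure was tested on simulated data. "Not overlapping" means that all 4 arrays of a group lay above all 4 of the other.

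The members, the pathway lists and the marker lists were chosen with earlier results of these data known. Named genes are every member called in a comparison, or, where none was, the 2 per complex with the smallest p, together with tissue isoforms and partners, the Sdh genes, the subunit c genes, genes without overlap between genotypes, and up to 3 called genes per pathway list. Sdhaf2, Sdhaf3 and Ndufaf6 in the controls, Dcn, Col1a1, Fmod, Tnmd, Ndufb4 and Ndufb4b were named after their values were seen. So were Vdac2, Pdhb, Sucla2 and Cs in the knockouts, and Pdhx and Ucp1 in both genotypes.

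NP and AF carry the same animal code in the labels, so the numbers pair the arrays. The deviations of the paired arrays correlated at -0.293 to 0.348, over 0.1 in 3 of 8 pairs, and the consensus correlation of the animal as a random block was 0.0353. Alternatives were the replicate block, second quantile normalization, median centring, a filter on dim probe sets, array weights, an intensity trend, 1 probe set per gene, separate fits, the labels' thresholds (unadjusted p under 0.05 and 1.75-fold), and arrays left out. The detection p threshold of the labels was not applied. The fit without NP cKO replicates 3 and 4 was added after seeing the data.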

Additional observations from a re-analysis of the deposited data

Results flagged for a closer look

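Within groups of 4 arrays, an array was set apart where its gap to the nearest other array was a larger share of the group's range than Dixon's critical value, and 7 of 212 groups had such an array. Chance gives about 1 in 20 groups.

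NP CTR replicate 3 was such an array 3 times: Sdhd was 10.04 there with the next array at 9.17, Uqcrh was 12.96 with the next at 12.03, and the mean of the complex V genes was 12.10 with the next at 11.61. Sdha was 9.17 in AF cKO replicate 3, with the other AF cKO arrays from 8.69 to 8.73. Atp5md was 12.73 in AF cKO replicate 1, with the other arrays from 13.28 to 13.37. Cox6a2 was 6.94 in NP CTR replicate 2, with the others from 7.21 to 7.24, and Cox6b2, at the background, was 4.81 in NP cKO replicate 3, with the others from 5.19 to 5.24.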

How the results depend on the processing

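Of 27 calls between tissues, 11 were kept under every alternative, the labels' thresholds included, and 12 did not pass those thresholds. Of 64 named results that were not called, 62 stayed so under every alternative judged by adjusted p, the exceptions being Cox8a and Cox8b between the control tissues, and 10 passed the labels' thresholds, among them Atp5o in AF. The count of 15 in the controls became 23 after median centring, 20 after a second quantile normalization, 18 with the animal as a random replicate block and 9 with it as a fixed replicate block, and ran from 9 to 17 with 1 array left out. The count of 12 in the knockouts became 7 under the labels' thresholds, 7 without AF cKO replicates 2 and 4, 4 without NP cKO replicates 3 and 4 (added after seeing the data), 6 without the pair of arrays with high osteoclast markers (AF CTR replicate 1, AF cKO replicate 3), 13 and 10 with the random and fixed replicate block, and ran from 5 to 14 with 1 array left out. Under the labels' thresholds 2 members passed for the genotypes in AF and 11 for the difference between tissues. The medians with 1 array left out ran from 0.09 to 0.36 for the control tissues, from -0.26 to -0.14 for the knockout tissues, from -0.16 to 0.02 for the genotypes in NP, from 0.27 to 0.45 in AF and from 0.34 to 0.54 for the difference. The cause of these movements was not tested.

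Sign changes occurred in small differences that were not called. Between the control tissues, Cox6b2 became 0.11 after centring and 0.033 with array weights, and Sdhc 0.11 after centring and 0.12 after quantile normalization. With 1 array left out, Cox6b2 ran from -0.11 to 0.096, Sdhc from -0.15 to 0.055, Cox7b from -0.38 to 0.023, Ndufa4 from -0.021 to 0.31 and Sdha from -0.065 to 0.35. Sdhd between the NP genotypes ran from -0.32 to 0.018. Between the AF genotypes, Cox4i2 ran from -0.30 to 0.17 and Cox8b from -0.38 to 0.059 over the fits that left out arrays, with Cox8b at 0.047 without that pair. Without AF cKO replicates 2 and 4, Cox6a2 became -0.042, Cox8c 0.019 and Cox7b -0.025. Without NP cKO replicates 3 and 4, Uqcr11 between the NP genotypes became 0.11.

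Precision is limited by 4 arrays a group. Members with signals near the negative controls have uncertain differences.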
